A study of Mus musculus with 10 samples.

Results

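The genes *Bhlhe22*, *Rftn1*, *Pdlim4*, *Tmeff1*, *Mapk12* and *Rgs8* were examined as genes whose transcripts were nearly or fully lost in Ep400 ko clones of O9-1 cells. They are 6 of the 43346 genes in the deposited table of read counts, and each symbol occurs once in it. Because the genes were selected for low counts in the Ep400 ko clones relative to wildtype cells, that difference is described here without a test. The 3 Kat5 ko clones did not enter the selection, and whether they lose the same transcripts was tested, although with the wildtype libraries that the selection had also used.

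O9-1 cells are a line of mouse cranial neural crest cells, and they were kept on Matrigel in medium conditioned by fibroblasts. The groups were 4 wildtype (WT) samples, 3 clones with Kat5 knockout and 3 clones with Ep400 knockout, each represented by 1 library of polyadenylated RNA. Clones were raised from single cells after transfection of a Cas9 plasmid with a guide against *Kat5* or *Ep400*, so that a clone and its library cannot be told apart. The study describes no wildtype clones raised in this way. In comparisons with WT, effects of the cloning and of the knockout therefore cannot be told apart. The line is tetraploid, and per the study's description of the clones, Ep400/2 and Ep400/3 carry short in-frame deletions in the ATP binding site in some alleles, whereas all alleles of Ep400/1 and of the Kat5 ko clones are predicted to be frameshifted.

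Ep400 and Kat5 are the enzymatic subunits of the Tip60/Ep400 complex. Ep400 is an ATPase that remodels nucleosomes and places the histone variant H2A.Z into chromatin, and Kat5 acetylates histones. The selected genes come from unrelated families. *Bhlhe22* encodes a basic helix-loop-helix repressor best known from neurons. *Tmeff1* codes for a transmembrane protein with follistatin-like domains that antagonizes Nodal signaling. *Rgs8* is a regulator of G protein signaling, which accelerates GTP hydrolysis by G protein alpha subunits. *Mapk12* is a mitogen-activated kinase of the p38 family, *Rftn1* encodes the lipid raft protein raftlin, and *Pdlim4* codes for an adaptor with a PDZ and a LIM domain at the actin cytoskeleton.

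The genes lie on 6 different chromosomes of GRCm38 (mm10), and all are protein-coding. *Bhlhe22* (ENSMUSG00000025128) is found on the plus strand at chr3:18054174-18057517, *Tmeff1* (ENSMUSG00000028347) on the plus strand at chr4:48585174-48663131 and *Rgs8* (ENSMUSG00000042671) on the plus strand at chr1:153653025-153700323. *Mapk12* (ENSMUSG00000022610) is located on the minus strand at chr15:89130584-89140703, *Rftn1* (ENSMUSG00000039316) on the minus strand at chr17:49992257-50190674 and *Pdlim4* (ENSMUSG00000020388) on the minus strand at chr11:54054928-54069014. Exons of *Rgs8* share 70 bases with the antisense gene *Gm29529*, which had 0 to 2 counts per library. The other genes overlap no exon of another annotated gene.

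Promoter sequences of RefSeq (GRCm38.p6, 250 bases before to 50 after a start site) were listed for 5 of the 6 genes. Shown are the promoter with the most CpG dinucleotides (*Tmeff1*), that of the gene with 0 counts in all Ep400 ko clones (*Rftn1*), one of intermediate CpG content (*Mapk12*) and the first listed start of the gene that was also low in the Kat5 ko clones (*Rgs8*). Capitals mark exact matches on either strand to the GC box GGGCGG, the CCAAT box CCAAT, the TATA box TATAAA, the Myc-type E-box CACGTG or the cAMP response element TGACGTCA.
*Tmeff1*, chr4:48584924-48585223, plus strand: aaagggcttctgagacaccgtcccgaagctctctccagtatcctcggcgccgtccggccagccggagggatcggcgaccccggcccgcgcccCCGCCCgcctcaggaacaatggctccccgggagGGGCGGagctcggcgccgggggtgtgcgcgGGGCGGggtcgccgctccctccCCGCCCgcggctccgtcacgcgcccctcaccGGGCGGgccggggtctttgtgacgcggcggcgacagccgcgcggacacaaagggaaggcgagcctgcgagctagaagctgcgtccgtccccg
*Rftn1*, chr17:50190448-50190747, minus strand: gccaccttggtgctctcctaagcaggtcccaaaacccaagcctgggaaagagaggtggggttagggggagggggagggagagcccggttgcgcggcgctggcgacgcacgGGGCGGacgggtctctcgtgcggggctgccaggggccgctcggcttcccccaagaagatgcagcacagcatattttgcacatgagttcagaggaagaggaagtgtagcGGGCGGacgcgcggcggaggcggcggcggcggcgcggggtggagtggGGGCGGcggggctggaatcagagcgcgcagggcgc
*Mapk12*, chr15:89140654-89140953, minus strand: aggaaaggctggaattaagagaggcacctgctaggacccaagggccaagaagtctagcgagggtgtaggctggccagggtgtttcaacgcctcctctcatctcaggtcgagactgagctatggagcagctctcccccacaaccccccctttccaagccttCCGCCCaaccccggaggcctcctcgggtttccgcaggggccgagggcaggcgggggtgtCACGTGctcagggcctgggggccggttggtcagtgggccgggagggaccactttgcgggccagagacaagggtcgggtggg
*Rgs8*, chr1:153652787-153653086, plus strand: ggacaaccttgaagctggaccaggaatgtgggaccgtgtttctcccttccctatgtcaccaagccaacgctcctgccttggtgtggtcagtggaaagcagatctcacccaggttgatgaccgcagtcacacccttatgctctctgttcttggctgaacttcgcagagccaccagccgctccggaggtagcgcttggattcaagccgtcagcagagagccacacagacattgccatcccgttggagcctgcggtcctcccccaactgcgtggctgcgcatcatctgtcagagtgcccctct

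The promoters differed in composition. The window of *Tmeff1* contains 45 CpG dinucleotides and 5 GC boxes, and 1.7% of the 32841 promoters of this length have more CpG. *Pdlim4* has 31 CpG dinucleotides and 3 GC boxes, and *Rftn1* has 30 and 3. In *Mapk12* there are 14 CpG dinucleotides, 1 GC box and 1 CACGTG, and the first listed *Rgs8* window has 12 CpG dinucleotides and none of the motifs. The median over all promoters was 7 CpG dinucleotides. A GC box was found in 35.7% of all promoters, a CCAAT box in 37.4%, a TATA box in 13.6%, the Myc-type E-box in 7.2% and the cAMP response element in 1.8%. No window of the selected genes held a TATA box or a cAMP response element, and a CCAAT box was present in that of *Pdlim4* and in the other two *Rgs8* windows. These matches describe letters only.

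Between 30968945 and 48301792 reads per library were counted on genes. Levels are given as CPM, read counts divided by library size in megareads, with library sizes adjusted by the trimmed mean of M-values (TMM) over all 10 libraries, so that 1 CPM corresponded to between 30.3 and 45.4 counts. *Ep400* was at 157 to 165 CPM in WT libraries, at 147 to 230 in Kat5 ko clones and at 54.7 to 61.4 in Ep400 ko clones. *Kat5* was at 48.8 to 57.5 CPM in WT libraries, at 64.5 to 79.2 in Ep400 ko clones and at 16.4 to 23.2 in Kat5 ko clones. Of 12 markers of the cranial neural crest, 9 exceeded 1 CPM on average in WT cells, among them *Sox9*, *Twist1*, *Tfap2a* and *Pdgfra*, whereas *Sox10* and *Foxd3* had 0 counts in all 10 libraries. The summed level of these markers was 442 to 520 CPM in WT libraries, 360 to 509 in Kat5 ko clones and 954 to 1065 in Ep400 ko clones, where *Pdgfra* alone was at 520 to 648 CPM against 105 to 136 in WT cells. The markers did not move together. In Ep400 ko clones *Twist1*, *Snai2* and *Tfap2a* were also above all WT libraries, whereas *Sox9* (40.7 to 56.2 CPM, WT 57.9 to 82.6) and *Snai1* (14.2 to 16.9 CPM, WT 17.2 to 24.1) were below them. The 8 neuron markers summed to 3.13 to 6.1 CPM in WT, 3.97 to 15.3 in Kat5 ko and 7.57 to 28.3 in Ep400 ko libraries, with *Rbfox3* at 0 counts throughout. Smooth muscle markers spanned 5.84 to 16.6 CPM in WT, 0.461 to 685 in Kat5 ko and 2.34 to 58.8 in Ep400 ko libraries. Markers of glia, skeletal muscle, keratinocytes, endothelium and leukocytes summed to at most 7.81 CPM in any library, with *Fabp7*, *Myod1* and *Cd3e* at 0 counts in all of them. The part of these shifts in the results was not tested.

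In wildtype cells, the genes were expressed at low to moderate levels. Per kilobase of exon, *Tmeff1* had 10.7 ± 1.75 CPM (SD, n = 4) and *Pdlim4* 10.1 ± 2.98, values that overlapped between libraries. *Mapk12* followed with 2.71 ± 0.996, *Bhlhe22* with 1.91 ± 0.485, *Rgs8* with 1.12 ± 1.01 and *Rftn1* with 0.646 ± 0.461, and the ranges of neighbors in this order overlapped, except that *Mapk12* (1.93 to 4.05) lay below *Pdlim4* (6.6 to 12.8). The median of 13992 genes was 5.37 CPM per kilobase.

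Wildtype libraries differed more in some of the genes than in others. The coefficient of variation over the 4 WT libraries was 90.2% for *Rgs8* and 71.4% for *Rftn1*, values that 2.67% and 5.54% of genes exceeded. It was 36.8% for *Mapk12*, 29.4% for *Pdlim4*, 25.4% for *Bhlhe22* and 16.4% for *Tmeff1*, against a median of 16.9% over 14071 genes. Library WT/3 was highest for *Bhlhe22*, *Mapk12* and *Rgs8* and lowest for *Rftn1* and *Pdlim4*. WT/3 also had the largest share of mitochondrial counts among the WT libraries, with 2.43% against 1.20% to 1.78%.

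*Bhlhe22*, the transcriptional repressor, was at 4.73, 7.60, 7.93 and 5.26 CPM in the libraries WT/1 to WT/4 (mean 6.38 ± 1.62, SD, n = 4). It was at 0.468, 16.2 and 6.57 CPM in clones Kat5/1 to Kat5/3, and at 0.0235, 0.0312 and 0 CPM in clones Ep400/1 to Ep400/3. In the Ep400 ko clones these levels rested on 1, 1 and 0 reads, far from the 148 to 304 reads of WT libraries. Pooled over libraries, wildtype cells had 366 times the level of Ep400 ko clones (95% interval 101 to 3026, covering counting error only). The Kat5 ko clones, by contrast, lay below, above and within the WT range.

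Among the signaling genes, *Tmeff1* retained the largest share of its wildtype level in the Ep400 ko clones. Its levels were 23.3, 33.5, 26.6 and 25.3 CPM in WT libraries, 13.3, 25.8 and 44.9 CPM in Kat5 ko clones, and 2.25, 1.87 and 2.66 CPM in Ep400 ko clones, with means of 27.2 ± 4.45 (SD, n = 4), 28 ± 15.9 (n = 3) and 2.26 ± 0.394 (n = 3). The Ep400 ko clones thus retained 8.29%, 6.90% and 9.81% of the WT mean and lay close together, and Kat5/1 to Kat5/3 had 48.8%, 95% and 165%. For the kinase gene *Mapk12*, WT libraries were at 7.47, 11, 15.4 and 7.36 CPM, Kat5 ko clones at 3.64, 6.13 and 12.5 CPM and Ep400 ko clones at 0.305, 0.187 and 0.0747 CPM, with means of 10.3 ± 3.79 (SD, n = 4), 7.41 ± 4.54 (n = 3) and 0.189 ± 0.115 (n = 3). Clones Kat5/1 and Kat5/2 were below the lowest WT library and Kat5/3 within the range, whereas 13, 6 and 3 reads were left in the Ep400 ko clones.

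*Rgs8*, the G protein regulator, was at 5.49, 6.99, 25.5 and 5.41 CPM in WT libraries (mean 10.8 ± 9.78, SD, n = 4). All knockout clones were lower, with 0.193, 0.165 and 0.551 CPM in Kat5/1 to Kat5/3 and 0.117, 0.406 and 0.423 CPM in Ep400/1 to Ep400/3 (means 0.303 ± 0.215 and 0.316 ± 0.172, SD, n = 3 each). No knockout clone reached the lowest WT library, and the ranges of both knockouts overlapped each other. WT/3 stood apart, and the fitted log2 difference of the Ep400 ko clones was −5.11 with it and −4.25 without it.

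The raft gene *Rftn1* was the only one of the genes with 0 counts in all Ep400 ko clones. Its levels were 3.48, 5.26, 0.261 and 2.63 CPM in WT libraries and 12.9, 0.132 and 2.98 CPM in Kat5 ko clones (means 2.91 ± 2.08, SD, n = 4, and 5.33 ± 6.69, n = 3). With 3 counts per library as the limit that a count of 0 allows, up to 0.0937 CPM, *Rftn1* was at least 36.5-fold lower in Ep400 ko clones than in wildtype cells. Among WT libraries it already varied 20.2-fold, and the 10 reads of WT/3 stood against 109 to 182 reads in the other WT libraries. Clone Kat5/2 was almost as low as the Ep400 ko clones with 4 reads, while Kat5/1 was above all WT libraries with 467.

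The cytoskeletal adaptor gene *Pdlim4* was at 31.7, 32.7, 16.9 and 22.3 CPM in WT libraries (mean 25.9 ± 7.62, SD, n = 4). In Kat5 ko clones it was at 0.551, 7.25 and 29.3 CPM, and in Ep400 ko clones at 0.258, 0.5 and 0.498 CPM, with means of 12.4 ± 15 and 0.419 ± 0.139 (SD, n = 3 each). Kat5/1 had 2.13% of the WT mean, near the 0.996% to 1.93% of the Ep400 ko clones, Kat5/2 had 28.0% and Kat5/3 was within the WT range.

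**Figure D1:**
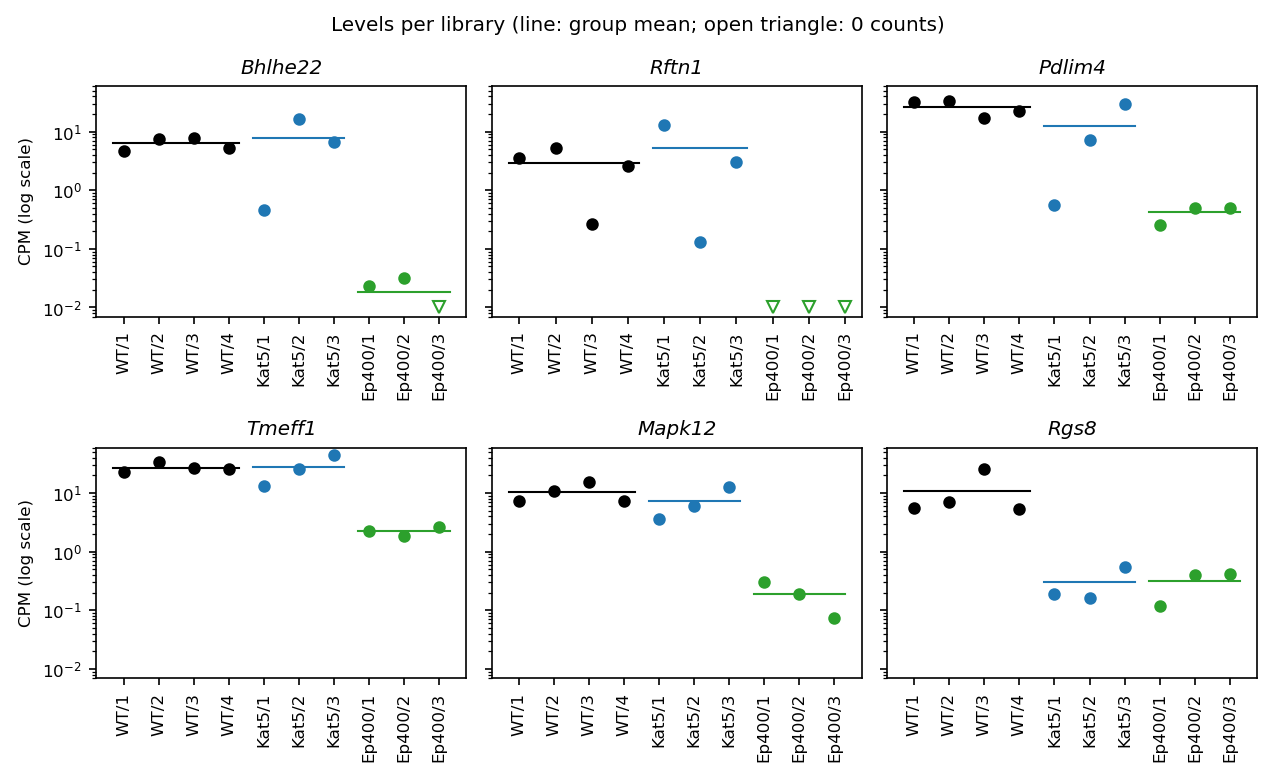
Level of each gene in CPM (log axis) in the 4 WT (black), 3 Kat5 ko (blue) and 3 Ep400 ko (green) libraries, with group means as lines and 0 counts as open triangles at the bottom. All Ep400 ko clones lie below the WT libraries, for *Rftn1* at 0 counts, while Kat5 ko clones lie between 0.132 and 44.9 CPM.

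As a group, all 18 values of the genes in the Ep400 ko clones were below the WT range, which the selection fixed and from which nothing is read. Of 13836 genes with enough counts in this comparison, 14.1% had all Ep400 ko clones below all WT libraries. The wildtype level was between 11.8 times (*Tmeff1*) and 366 times (*Bhlhe22*) that of the Ep400 ko clones, with 61.8 times for *Pdlim4*, 53.7 for *Mapk12* and 35.9 for *Rgs8*. Clones with and without in-frame alleles cannot be compared by these levels, because the genes were selected for low counts in the Ep400 ko clones. The median over the genes was 1.04% of the WT mean in Ep400/1, 1.87% in Ep400/2 and 1.32% in Ep400/3. In these bulk samples, fewer cells with a transcript and less of it per cell cannot be told apart.

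To find out whether Kat5 ko clones lose the genes too, they were compared with wildtype cells by edgeR's quasi-likelihood test over 13434 genes. Genes are called downregulated or upregulated where the adjusted p was 0.05 or lower, the log2-fold change was 1 or more in size and the normalized count averaged more than 100 in 1 or both groups. 1 of the 6 genes, *Rgs8*, was downregulated, as were 0.298% of all genes tested. The log2-fold change of *Rgs8* was −5.14 with a standard error of 0.82 (95% interval −7.02 to −3.26) and an adjusted p of 0.0466 in edgeR (Benjamini-Hochberg), and 3 of 3 clones were below all WT libraries, as for 10.9% of genes. The call depended on single libraries. Adjusted p was 0.114 without WT/1 (log2-fold change −5.37), 0.0573 without WT/2 (−5.28), 0.116 without WT/4 (−5.35), 0.0864 without Kat5/2 (−4.84) and 0.104 without Kat5/3 (−5.91) in the same edgeR test. With limma-voom it was 0.0707 (−4.94). In edgeR without WT/3, in which *Rgs8* was highest, it was 0.0419 (−4.28), and without Kat5/1 it was 0.0177 (−4.89). With DESeq2, by which 2.77% of genes were downregulated, it was 1.8e-11 (−5.15). Over all alternatives it ranged from that value to 0.116. The number of downregulated genes among all genes, 40, was likewise 1 without WT/1 or WT/4, 22 without WT/3, 18 without Kat5/2, 3 without Kat5/3 and 635 without Kat5/1. The median of all genes on chromosome 1 in Kat5/1 was −0.24 relative to WT on the log2 scale, and its part was not tested.

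The remaining genes did not pass the test in the Kat5 ko clones, and their intervals differed widely. *Tmeff1* had a log2-fold change of 0.01 with a 95% interval of −0.80 to 0.82 (adjusted p = 0.989 from edgeR). For *Mapk12* it was −0.51 (−1.52 to 0.50, adjusted p = 0.532 from edgeR), and for *Bhlhe22* 0.24 (−1.63 to 2.12, adjusted p = 0.888 from edgeR). Wider still were the intervals of *Pdlim4* with −1.10 (−3.20 to 1.00, adjusted p = 0.513 from edgeR) and *Rftn1* with 0.86 (−1.84 to 3.56, adjusted p = 0.706 from edgeR). Single clones moved these values. *Pdlim4* was at −2.76 without Kat5/3, −0.53 without Kat5/1 and −2.25 with limma-voom, and *Mapk12* at −1.10 without Kat5/3, −0.18 without Kat5/1 and −0.24 without WT/3, and none of these passed the test. *Bhlhe22* was at −0.87 without Kat5/2 and 0.80 without Kat5/1, *Rftn1* at −0.92 without Kat5/1 and 1.42 without Kat5/2, and *Tmeff1* at −0.50 without Kat5/3 and 0.35 without Kat5/1. The log2 ratios of pooled counts in Ep400 ko clones were −3.56, −5.75, −8.52 and −5.95 for *Tmeff1*, *Mapk12*, *Bhlhe22* and *Pdlim4*, with an upper limit of −5.19 for *Rftn1*. Both comparisons share the wildtype libraries, and the difference between the knockouts was not tested because the genes were chosen by the Ep400 ko clones.

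**Figure D2:**
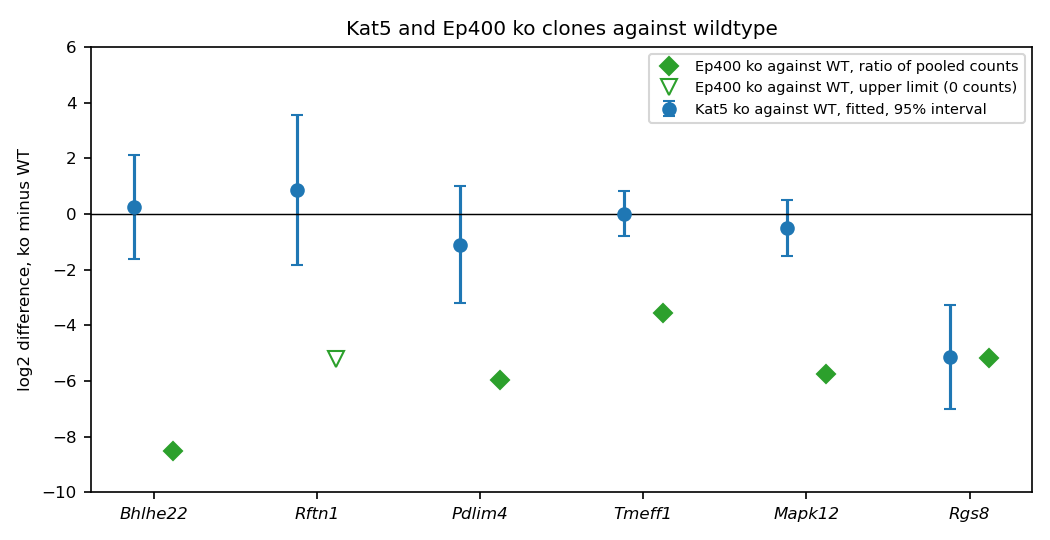
Log2 difference from wildtype for each gene, as the fitted value with its 95% interval for Kat5 ko clones (blue circles) and as the ratio of pooled counts without a test for Ep400 ko clones (green diamonds, with an open triangle for the upper limit of *Rftn1*). The Kat5 interval of *Rgs8* reaches from −7.02 to −3.26, and those of the other genes include 0.

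The average over the Kat5 ko clones hid large differences between them. In clone Kat5/1, 5 of the 6 levels were below those of all WT libraries, and *Rftn1* exceeded them at 443% of the WT mean. Kat5/2 was below the range for *Rftn1*, *Pdlim4*, *Mapk12* and *Rgs8*, above it for *Bhlhe22* at 255% and within it for *Tmeff1*. In Kat5/3, *Rgs8* alone was below the range and *Tmeff1* above it. Over all genes tested, 27.9%, 34.1% and 32.0% were below the WT range in Kat5/1, Kat5/2 and Kat5/3, and 27.9%, 34.7% and 33.8% were above it. The median of the 6 genes was 21.3%, 43.7% and 108% of the WT mean in the respective clones. *Rgs8* was under 10% of the WT mean in every Kat5 ko clone. Among the other genes, levels under 10% were seen for *Bhlhe22* (7.34%) and *Pdlim4* (2.13%) in Kat5/1 alone and for *Rftn1* (4.53%) in Kat5/2 alone. The median over all genes of a chromosome also differed between clones. Genes of chromosome 15, which carries *Mapk12*, had a median of −0.35 in Kat5/1 and 0.22 in Kat5/3 on the log2 scale, and those of chromosome 17, with *Rftn1*, −0.36 in Kat5/3 and −0.28 in Ep400/2. For chromosomes 3, 4 and 11 the medians in all knockout clones were between −0.20 and 0.16. The part of these shifts was not tested.

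**Figure D3:**
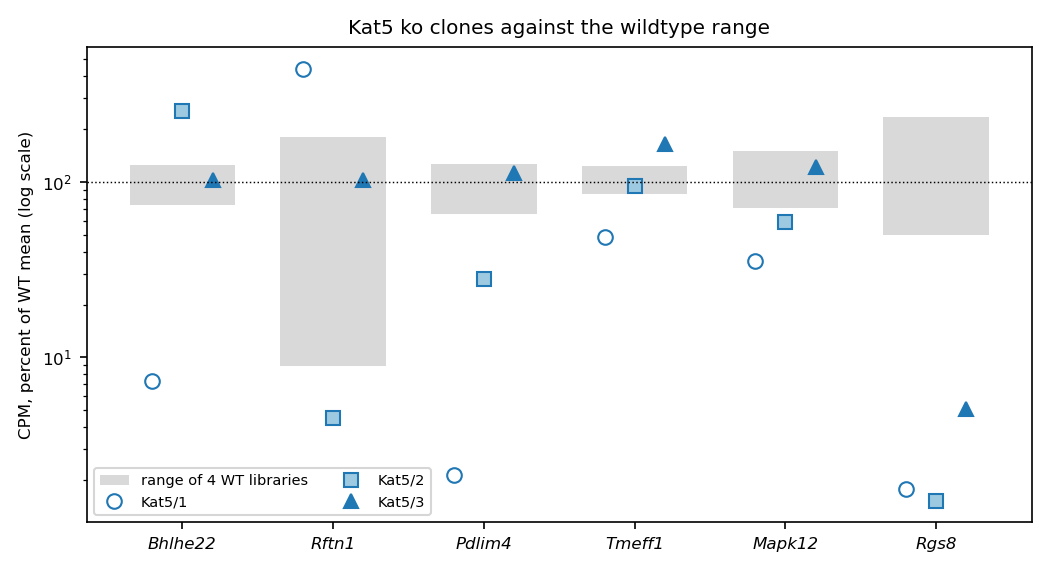
Level in clones Kat5/1 (open circles), Kat5/2 (light squares) and Kat5/3 (filled triangles) as a percentage of the WT mean (log axis), with the range of the 4 WT libraries in gray. *Rgs8* is at 1.78%, 1.52% and 5.08%, below the gray range in all clones, whereas *Rftn1* spans 4.53% to 443%.

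Relatives and functional partners of the genes were examined from lists written for each, 78 genes in all, of which 49 had enough counts to be tested. In the Ep400 ko clones, 3 of the 49 were downregulated and 4 upregulated, against 2.31% and 4.17% of all genes, and the median log2-fold change was 0.16, with 0.043 over all genes. In the Kat5 ko clones 0 of the 49 passed the limits in edgeR (all genes: 0.298% downregulated, 0.0893% upregulated). There, 15 had an unadjusted p under 0.05, a count without its share over all genes and therefore read no further. In limma 0 passed, and in DESeq2 2 were downregulated (all genes: 2.77%) and 1 upregulated. Their median log2-fold change was 0.056 in Kat5 ko clones, and 3.2e-05 over all genes.

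Of the p38 kinases listed for *Mapk12*, *Mapk11* fell in Ep400 ko clones and *Mapk14* did not pass the test, and the difference between them was not tested. *Mapk11*, which ends 1783 bases upstream of *Mapk12* on the same strand, had 19.3, 30.3, 28 and 17.5 CPM in WT libraries and 11.6, 7.72 and 7.84 CPM in Ep400 ko clones. It fell by 1.39 on the log2 scale (SE 0.27, adjusted p = 0.0145 from edgeR). *Map2k6*, which encodes an upstream kinase of the p38 family, fell by 1.15 on the log2 scale (SE 0.24, adjusted p = 0.0188 from edgeR), but the change was −0.97 without WT/2, its highest library at 22.6 CPM, and the adjusted p was 0.0609 in 1 edgeR fit of all 10 libraries. *Mapk14*, the ubiquitous p38 kinase, was at 77.1 to 81.8 CPM in WT libraries and at 95.8, 50.8 and 60.4 CPM in Ep400 ko clones (log2-fold change −0.21, adjusted p = 0.527 from edgeR). In Kat5 ko clones the log2-fold change of *Mapk11* was 0.11 (adjusted p = 0.810 from edgeR) and that of *Mapk14* 0.25 (adjusted p = 0.377 from edgeR). *Map2k6* was below all WT libraries there too, at 13.7, 6.43 and 5.44 CPM, but did not pass (log2-fold change −0.99, adjusted p = 0.161 from edgeR). Without Kat5/1 it passed the limits (−1.52, adjusted p = 0.0115 from edgeR).

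Regulators of G protein signaling moved in both directions after Ep400 loss. *Rgs17* rose from 0.496 to 2.41 CPM in WT libraries to 30.6, 25 and 13.3 CPM in Ep400 ko clones, by 4.09 on the log2 scale (SE 0.60, adjusted p = 0.00582 from edgeR), and passed the limits in all 16 alternatives. *Rgs10* rose by 1.07 on the log2 scale (adjusted p = 0.0408 from edgeR) and the alpha subunit gene *Gnaz* by 2.09 (adjusted p = 0.0389 from edgeR), while *Rgs19* fell by 1.06 (adjusted p = 0.0132 from edgeR). *Rgs10* missed the limits without WT/1 (1.01), WT/3 (0.97), WT/4 (1.02), Ep400/1 (1.07) or Ep400/3 (0.82), *Gnaz* without WT/1 (1.98), WT/3 (1.81), WT/4 (2.12), Ep400/1 (2.07) or Ep400/3 (1.69) and in 1 fit of all 10 libraries (2.09, adjusted p = 0.161), and *Rgs19* without WT/2 or Ep400/2, with a size just under 1, or without Ep400/3 (−0.94). *Rgs16*, the nearest tested protein-coding gene to *Rgs8* at 40026 bases, had 240, 504, 705 and 227 CPM in WT libraries and 39.3, 260 and 55 CPM in Ep400 ko clones, which overlapped (log2-fold change −1.83, adjusted p = 0.115 from edgeR).

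The closest relatives of the other genes were also examined. *Tmeff2*, the paralog of *Tmeff1*, was at 0.861 to 2.02 CPM in WT libraries and at 8.73, 4.28 and 2.61 CPM in Ep400 ko clones, a rise of 2.02 on the log2 scale (adjusted p = 0.0289 from edgeR) that missed the limits without WT/1 (1.92), WT/3 (1.99), WT/4 (1.87) or Ep400/1 (1.42). In Kat5 ko clones *Tmeff2* was at 5.07, 2.57 and 2.91 CPM, also above all WT libraries. Its log2-fold change there was 1.43 (adjusted p = 0.111 from edgeR), and it passed the limits in DESeq2 (adjusted p = 0.0263). *Rftn2*, the paralog of *Rftn1*, was at 37.6 to 110 CPM in WT libraries and at 24.9, 72.5 and 71.3 CPM in Ep400 ko clones (adjusted p = 0.788 from edgeR). In Kat5 ko clones *Rftn2* was at 35.4, 24.6 and 18 CPM, below all WT libraries, but did not pass (log2-fold change −1.34, adjusted p = 0.107 from edgeR). *Bhlhe23* and *Pdlim3* had 0 counts in every library. The lists for *Bhlhe22*, *Rftn1* and *Pdlim4* had 3, 9 and 8 genes tested. Of these, no gene passed the limits in Ep400 ko clones in edgeR, and 0 passed in DESeq2 and 0 in limma. An unadjusted p under 0.05 in edgeR was found for 7 of these genes, a count read no further because the share over all genes is not given here. Among them *Flot2*, which encodes a flotillin of lipid rafts, was at −0.77 on the log2 scale (adjusted p = 0.0131 from edgeR) and *Pdlim7*, another PDZ and LIM domain gene, at −0.67 (adjusted p = 0.0167 from edgeR), both with all Ep400 ko clones below all WT libraries but short of the limit on the fold change. *Flot2* and *Pdlim7* were chosen after their values were seen, and the others with an unadjusted p under 0.05 went both ways. *Pdlim5* fell (−0.81), whereas *Bhlhe40* (0.67), *Cavin3* (0.90), *Cav2* (0.52) and *Cavin1* (0.44) rose, with adjusted p of 0.0644 to 0.14 from edgeR.

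**Figure D4:**
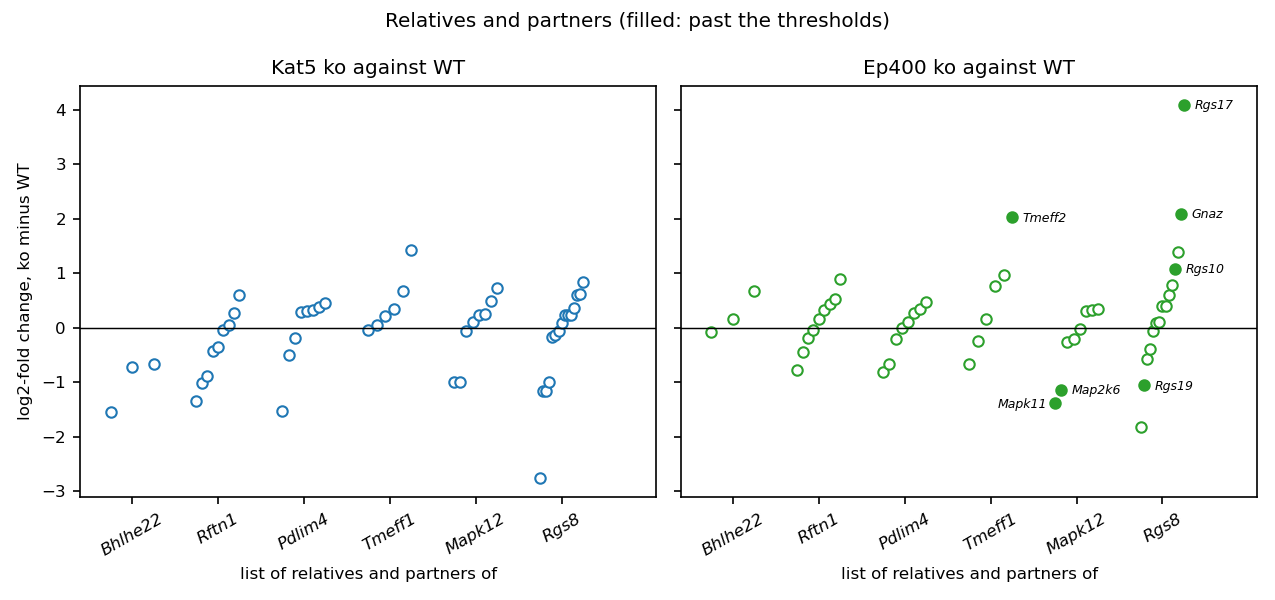
Log2-fold change of the 49 tested relatives and partners, by list, in Kat5 ko clones (left) and Ep400 ko clones (right), with filled points for genes past the limits in edgeR. The 7 filled points are *Tmeff2*, *Mapk11*, *Map2k6*, *Rgs10*, *Rgs17*, *Rgs19* and *Gnaz* in Ep400 ko clones.

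The nearest tested protein-coding gene on each side of the selected genes was also examined, 12 genes at distances of 383 to 1837137 bases. In the Ep400 ko clones the median log2-fold change of the 12 was −1.03, with 0.043 over all genes, and 2 of them, *Mapk11* and *P4ha2*, were downregulated, as were 2.31% of all genes. *P4ha2*, which encodes a collagen prolyl hydroxylase and lies 31081 bases from *Pdlim4*, was at 41.6, 56.6, 48.5 and 40.6 CPM in WT libraries and at 19.1, 14.4 and 16 CPM in Ep400 ko clones (log2-fold change −1.51, SE 0.18, adjusted p = 0.00329 from edgeR). *Slc22a4*, on the other side of *Pdlim4* at 26838 bases, went the other way without passing (log2-fold change 1.16, adjusted p = 0.102 from edgeR). It was at 8.84 to 19.5 CPM in WT libraries and at 19.2, 60.6 and 21.3 CPM in Ep400 ko clones. *Cyp7b1*, an oxysterol hydroxylase gene 14433 bases from *Bhlhe22*, had a log2-fold change of −3.70 (adjusted p = 0.0411 from edgeR) at 0.575 to 1.23 CPM in WT libraries, below the limit on the mean count. The neighbors at the shortest distances, apart from *Mapk11*, did not pass the test. *Murc*, 383 bases downstream of *Tmeff1*, was at 7.7 to 26.7 CPM in WT libraries and at 12.1 to 21.3 CPM in Ep400 ko clones (log2-fold change −0.045, adjusted p = 0.959 from edgeR), and *Hdac10*, 1884 bases from *Mapk12*, was at 20.2 to 27.6 and at 18.5 to 19.8 CPM (log2-fold change −0.20, adjusted p = 0.434 from edgeR). In Ep400 ko clones DESeq2 gave 2 downregulated neighbors (all genes: 3.04%) and 1 upregulated, and limma gave 2 (all genes: 2.41%) and 0. Of the 12, 7 had an unadjusted p under 0.05 in edgeR. In Kat5 ko clones 0 of the 12 neighbors passed the limits in edgeR (all genes: 0.298% downregulated), 0 in DESeq2 and 0 in limma. There, 2 had an unadjusted p under 0.05 in edgeR. The counts by unadjusted p in both comparisons are read no further, because the share over all genes is not given here.

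Finally, genes with the most similar profile were sought. The measure was the root mean square difference of log2 CPM, relative to the WT mean, over the 10 libraries and among 14073 genes. It includes the Ep400 ko libraries, in which the genes were selected to be low. A likeness that rests on a low level there therefore follows from the selection. The closest to *Tmeff1* was *Eno3*, a muscle enolase gene, with a difference of 0.42, and its levels were 87 to 130 CPM in WT, 51.6, 100 and 115 CPM in Kat5 ko and 19.7, 6.87 and 10.9 CPM in Ep400 ko libraries. *Wisp1* (0.48) and *Padi2* (0.51) followed. For *Mapk12* these were *Apobr* (0.70), *Glt1d1* (0.73) and *Slc38a1* (0.79), and for *Rgs8* *Pdzrn4* (0.82), *Fgf21* (1.24) and *Ndrg2* (1.25). Some of the similar genes had few counts. In WT libraries *Pdzrn4* was at 1.39 to 2.87 CPM, *Glt1d1* at 1.7 to 3.24, *Fgf21* at 0.173 to 1.54 and *Padi2* at 0.694 to 1.15. *Pdzrn4*, *Glt1d1* and *Fgf21* were at 0 CPM in all Ep400 ko clones. *Bhlhe22* was nearest to *Glt1d1* (0.97), *Cldn6* (1.06) and *Fgfbp1* (1.27), and *Pdlim4* to *Arap3* (1.14), *Fgfbp1* (1.35) and *Glt1d1* (1.47). *Rftn1* had the least similar partners, with *Peg3* as the closest, followed by *Gfra2* (1.59) and *Mycn* (1.60). *Peg3*, an imprinted gene, had 11.5, 9.51, 0.104 and 8.75 CPM in WT libraries, 39.7, 0 and 23.1 CPM in Kat5 ko clones and 0, 0.125 and 0.0249 CPM in Ep400 ko clones, so that it was low in WT/3 and Kat5/2, as *Rftn1* was. Between the selected genes themselves, the difference was smallest for *Bhlhe22* and *Mapk12* with 1.13 and largest for *Rftn1* and *Rgs8* with 3.33.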

How the data were processed

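Polyadenylated RNA of 4 WT samples, 3 Kat5 ko clones and 3 Ep400 ko clones was sequenced by the authors as paired reads and mapped to mm10. The submitters' processing notes name bcl2fastq 2.20, STAR 2.7.3 and DESeq2 1.36.0. The counting program, its strand setting and the annotation are not given in the sources used here. The table used holds raw counts, deposited by the authors as whole numbers of reads for each gene. The further deposited tables of scaled counts were not used, because they hold rescaled values of the same libraries.

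Genes were kept by filterByExpr, normalized by TMM and tested within each comparison with edgeR 4.0.16 (glmQLFit, glmQLFTest, Benjamini-Hochberg over all genes) in R 4.3.3. Intervals are 95% intervals from the fitted standard error, which was derived from the F statistic. Alternatives used DESeq2 1.42.0, limma 3.58.1, other scalings and filters, 1 fit of all libraries, a replicate block and each library left out, and a robust fit was added after values had been seen. The script was tested on simulated data. Exon lengths and coordinates are those of GENCODE M21, which holds 98.0% of the gene IDs.

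The genes examined and the lists of relatives and markers were chosen with earlier results of these data known. Named were the 6 genes and the targeted genes, relatives past the limits and the closest relative of each gene, the nearest tested neighbors and the 3 most similar profiles. Log2 CPM used a prior count of 2. The labels call the WT samples biological replicates. Counting intervals cover counting error only, and the limit for 0 counts was 3 counts.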

Additional observations from a re-analysis of the deposited data

Results flagged for a closer look

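In 28 genes named here, the 4 WT libraries were examined for a library far from the others, which chance gives in about 1 in 20 groups, and 4 genes had one. *Rgs8* was at 25.5 CPM in WT/3, with a gap to the next library of 0.921 of the range. *Hdac10* was at 27.6 CPM in WT/3 (0.948 of the range). *Map2k6* was at 22.6 CPM in WT/2 (0.866) and *Rgs10* at 11.6 CPM in WT/2 (0.839). Without WT/3, the log2-fold change of *Rgs8* in Kat5 ko clones was −4.28.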

How the results depend on the processing

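The number of selected genes past the limits in Kat5 ko clones was 1, and 1 with DESeq2 (*Rgs8* adjusted p = 1.8e-11). It was 0 with limma-voom (*Rgs8* adjusted p = 0.0707), 0 with the replicate block (0.0942 from edgeR) and 0 to 1 with a library left out. Upregulated relatives in Ep400 ko clones numbered 1 with the replicate block and 1 to 5 with a library left out (1 without WT/1, WT/3, WT/4 or Ep400/1), and downregulated ones 0 with the block and 1 to 3 (1 without WT/2). In Kat5 ko clones, DESeq2 gave 2 downregulated relatives (all genes: 2.77%) and 1 upregulated. Leaving out libraries gave 0 to 6 and 0, the highest without Kat5/1 (all genes: 4.63% downregulated). The cause was not tested.

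Directions that turned were those of genes that had not passed in Kat5 ko clones. *Bhlhe22* was at −0.79 with limma-voom and −0.70 with the replicate block, and between −0.87 and 0.80 with a library left out. *Tmeff1* was at −0.12 with limma-voom, −0.052 with scaling by library size and −0.18 with the block, and between −0.50 and 0.35 with a library left out. *Rftn1* was between −0.92 and 1.42, negative without Kat5/1. It was 0.03 with limma-voom. *Pdlim4* kept its sign in Kat5 ko clones but was at −2.26 with the block, and *Mapk12* and *Rgs8* kept theirs.

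Replicate numbers are not stated to pair WT libraries with clones. Correlations of same-numbered deviations were 0.15, −0.096 and 0.053 for Kat5 and −0.033, −0.014 and 0.088 for Ep400, and not every library correlated best with its own number. The replicate block therefore served as an alternative only. With it, *Rgs17* was the only relative past the limits in Ep400 ko clones. The adjusted p from edgeR was 0.0806 for *Mapk11*, 0.0503 for *P4ha2*, 0.0736 for *Map2k6*, 0.0626 for *Rgs19*, 0.189 for *Rgs10*, 0.18 for *Gnaz* and 0.152 for *Tmeff2*. With each library left out, *Mapk11*, *P4ha2* and *Rgs17* passed. Over all genes, 40 were downregulated in Kat5 ko clones, but 0 with the block, 372 with DESeq2, 61 with limma-voom, 115 without a filter on low counts and 17 in 1 fit of all libraries. In Ep400 ko clones 319 were, but 65 with the block and 203 without WT/2. With a prior count of 0.5, 1 to 2 of the 3 most similar profiles of each gene were shared with those given. *Pdzrn4* was then no longer listed for *Rgs8*, nor *Padi2* for *Tmeff1*.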
